A study of Mus musculus with 12 samples.

Results

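The lysosomal genes described here are 37 genes that code for the proton pump of the lysosome (16 genes), its hydrolases and the proteins that assist them, its membrane proteins, the cholesterol exporters of its lumen and membrane, the transcription factor TFEB and progranulin. They were chosen by what their products do, but with earlier results of these data known, so their counts beside all genes are descriptive. All 37 were found among the 24445 gene symbols of the count tables, and all 37 passed the filter on low counts and were among the 14608 genes tested. The study sequenced RNA of cardiac macrophages (Mφ) of adult male C57BL6/J mice, 4 mice and 4 libraries in each of 3 groups. Control mice (Ct) carried saline pumps, mice with early concentric hypertrophy (ECH) had received isoproterenol, a β-adrenergic agonist, by pump at 30 mg/kg/day for 14 days, and mice with heart failure (HF) had received the same dose for 28 days. How long each Ct mouse was infused is unknown here, so the groups differ in treatment and may differ in its duration. Cells were enriched for the leukocyte marker CD45 on beads and sorted as CD11b+ and CD14+/CD64+ cells, a gate that can hold resident Mφ and monocyte-derived cells alike.

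Lysosomes are the acidic compartments in which phagocytes such as Mφ break down what they engulf, and dead cells and debris of the heart reach them through phagocytosis and autophagy. The pump, the V-ATPase, has a membrane sector (V0) that carries protons and a cytosolic sector (V1) that splits ATP, and the acid it makes is needed by the hydrolases of the lumen. TFEB is known to bind a short element with the core CACGTG in the promoters of many lysosomal genes.

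The core CACGTG was therefore searched in the promoters, taken from RefSeq on the assembly GRCm38.p6 as 250 bases before to 50 bases after each start. The letters read the same on both strands. Of the 37 genes, 30 had a promoter in the table and 9 of these (30%) held the core, against 8.09% of 27025 gene symbols with a promoter and 11.3% of the 10983 tested genes that had one. The 9 were Atp6v0b, Atp6v0d1, Atp6v0e, Atp6v1a, Gaa, Gla, Glb1, Lamp1 and Mcoln1. Lamp1 held it 4 times, starting 61, 45, 28 and 15 bases before the start. The stretches printed here are parts of 5 promoters that hold it, written 5′ to 3′ on the strand of the gene with the core in capitals. Lamp1 and Atp6v1a are shown because their level was higher than in Ct at an unadjusted p under 0.05 in at least 1 comparison, and Atp6v0b, Glb1 and Gaa because theirs was not. They lie at chr8:13159061-13159160 (plus strand), chr16:44139360-44139459 (minus strand), chr4:117887330-117887429 (minus strand), chr9:114400978-114401077 (plus strand) and chr11:119267763-119267862 (plus strand). In the GENCODE M21 annotation these stretches are upstream of the first exon, but for the last bases at Atp6v0b and Glb1, and the stretch of Atp6v1a is intronic to transcripts with an earlier start.
Lamp1: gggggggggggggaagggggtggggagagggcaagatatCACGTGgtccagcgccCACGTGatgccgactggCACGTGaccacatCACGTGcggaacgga
Atp6v1a: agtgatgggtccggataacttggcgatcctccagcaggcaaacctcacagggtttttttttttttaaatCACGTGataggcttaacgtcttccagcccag
Atp6v0b: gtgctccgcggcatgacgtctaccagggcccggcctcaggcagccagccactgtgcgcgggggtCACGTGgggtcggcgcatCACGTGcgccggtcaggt
Glb1: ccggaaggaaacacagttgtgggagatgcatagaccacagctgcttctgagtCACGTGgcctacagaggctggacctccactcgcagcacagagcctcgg
Gaa: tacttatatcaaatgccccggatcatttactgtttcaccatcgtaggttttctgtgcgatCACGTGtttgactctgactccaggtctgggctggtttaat
A match is a description of letters and not a binding site.

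Totals ranged from 88466559 to 101190984 counts per library in Ct, 103926379 to 109030774 in ECH and 106276190 to 111180291 in HF. Every Ct library was thus shallower than every ECH and HF library. Levels are given as CPM, the count of a gene relative to the TMM-scaled total, and a difference between groups is a log2 fold change ± its standard error from edgeR's quasi-likelihood fit. The edgeR FDR is the p-value of that fit adjusted by Benjamini-Hochberg over the 14608 genes, with an FDR under 0.05 taken as a call. Both comparisons with Ct use the same 4 Ct libraries. Means are given ± SD over the 4 libraries of a group. Of the exon bases of Hexa, Atp6v0b and Lamp1, 12.8%, 11.8% and 9.31% overlap those of other genes, and 18.2% of the 50-base stretches of Atp6v1f and 4.94% of those of Glb1 occur in other genes, so their counts are less certain. HF library 1 and Ct library 2 had the fewest genes detected of their groups (13600 and 14489, with up to 15940 elsewhere). Ct library 2 was the lowest Ct library for 16 of the 37 genes and the highest for 14, and HF library 1 the lowest HF library for 15 and the highest for 10. Transcripts of the 16 had a median length of 2730 bases and those of the 14 of 2060. Over 36 genes, the log2 level in Ct library 2 over the other Ct libraries correlated with log2 transcript length (Pearson r -0.43). The part of length in the differences from Ct was not tested. The library numbers in the sample descriptions fall into what look like 2 series, the first with all Ct libraries and ECH libraries 1 and 2, the second with all HF libraries and ECH libraries 3 and 4. Neither the labels nor the methods call these batches. HF and Ct share no such series, so between them group and series cannot be told apart except through ECH. Codes in the sample titles, of no stated meaning, group some libraries too. They pair Ct libraries 1 and 2, Ct libraries 3 and 4, ECH libraries 3 and 4, and HF libraries 1 and 2. The sorted cells carried the defining Mφ markers in every library (8 genes summing to 23684 to 34009 CPM). B cell markers were lower in every isoproterenol library than in every Ct library, with 5 measured genes summing to 96.6 to 446 CPM in Ct, 34.3 to 79.8 in ECH and 50.1 to 74.6 in HF. Monocyte markers of the Ly6C-high kind (6 genes) summed to 291 to 593, 517 to 690 and 539 to 906 CPM, and neutrophil markers (8 genes) to 342 to 1660, 184 to 640 and 119 to 1231 CPM. T and NK cell markers (6 measured genes) summed to 12.7 to 58.6, 2.71 to 23.2 and 7.20 to 17.3 CPM, dendritic cell markers (6) to 101 to 229, 97.4 to 141 and 128 to 162, and fibroblast markers (7) to 29.3 to 192, 90.2 to 468 and 81.1 to 248. Endothelial markers (7) summed to 8.30 to 30.8, 13.9 to 35.3 and 10.7 to 24.4 CPM and cardiomyocyte markers (8) to 85.0 to 249, 80.6 to 166 and 63.4 to 104. No measured marker was at 0 in all 12 libraries, and Camp, a neutrophil granule gene, was at 0 in all 4 HF libraries. The part of these cells in the results below was not tested, and in bulk samples fewer cells of a type and less RNA per cell cannot be told apart.

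The summed level of the lysosomal genes was higher in every isoproterenol library than in every Ct library. The 37 genes summed to 18097, 15280.3, 17939.8 and 18042 CPM in Ct libraries 1 to 4, to 20968, 20874, 21792 and 20668 in ECH and to 20067, 20891, 20325 and 20292 in HF. The lowest isoproterenol library, HF library 1, stood above the highest Ct library, and Ct library 2 was the lowest of all. The means were 17339.8 ± 1375 (SD, n = 4), 21076 ± 494 and 20394 ± 351 CPM, 21.5% higher in ECH and 17.6% higher in HF. Without Psap, an abundant gene that spread widely among libraries, the sums were 15306 ± 885, 18378 ± 763 and 18614 ± 338 CPM, higher by 20.1% and 21.6%. The 16 pump genes summed to 2778 to 3126 CPM in Ct, 3353 to 3766 in ECH and 3444 to 3867 in HF, without overlap between Ct and the others. By sector, the V1 sum was 21.3% higher in ECH and 25.0% higher in HF and that of the accessory subunits 30.4% and 29.6% higher. V0 averaged 961 ± 96.9 CPM in Ct, 953 ± 83.5 in ECH and 1075 ± 101 in HF, 11.9% higher in HF and -0.83% in ECH, with overlapping groups. The difference between sectors was not tested, and the V0 sum holds almost nothing of Atp6v0c, which was near 0 in all libraries.

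**Figure D1:**
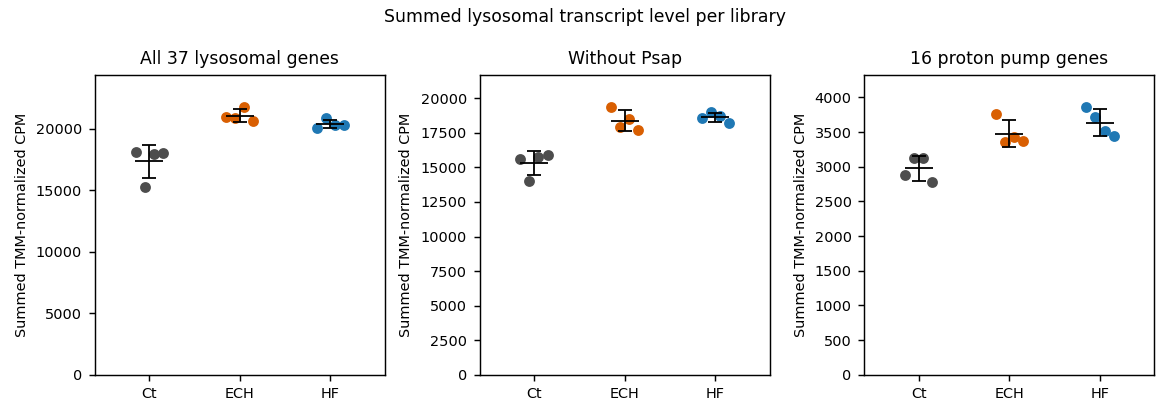
Summed level of all 37 lysosomal genes, of all but Psap and of the 16 proton pump genes in each library (vertical axes, TMM-normalized CPM, from 0) by group, with points for the 4 libraries of a group and bars for mean ± SD. In each panel every ECH and HF library lies above every Ct library, and Ct library 2 is lowest in the panel of all 37 genes at 15280.3 CPM.

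In ECH against Ct, none of the 37 genes was called at the edgeR FDR, at a rule that called 0.472% of all genes tested (0.356% with the 2-fold change the study also asked for). The same rule called 6 of the 37 in DESeq2 (3.37% of all genes), 4 with edgeR's likelihood ratio test (2.51%) and 1, Gusb, with limma-voom with sample quality weights (0.945%). Those of DESeq2 were Atp6v0d2, Atp6v1a, Atp6v1c1, Atp6ap2, Gusb and Lamp1, and the likelihood ratio test called these but Atp6v1c1 and Lamp1. With an unadjusted p under 0.05, 14 were higher, where 6.03% of all genes were, and none was lower, where 5.89% were. The fold change was above 0 for 31 of the 37, against 51.1% of all genes. All 4 ECH libraries stood above all 4 Ct libraries for 9 genes (4.33% of all genes did) and below for none (3.64%). The median log2 fold change of the 37 was 0.22, and 0.01 over all genes.

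In HF against Ct, Atp6v0d2 and Gusb rose, the 2 of the 37 called at the edgeR FDR, where 0.513% of all genes were called. With the 2-fold change added, Atp6v0d2 alone was called (0.377% of all genes). DESeq2 called 7 of the 37 (5.21% of all genes), the likelihood ratio test 4 (3.33%) and limma-voom 6 (2.1%), and both genes were among them each time. Of the others, Atp6v1c1 and Lamp1 were called by each, of these 3 tools Cd68, Hexa and Laptm5 by DESeq2 alone, and Atp6v0e and Atp6v1g1 by limma-voom alone. At an unadjusted p under 0.05, 16 were higher, where 7.35% of all genes were, and none was lower, where 8.72% were. The fold change was above 0 for 30, against 48.8% of all genes, and the groups did not overlap for 11 higher (4.59%) and no lower gene (4.45%). The median log2 fold change was 0.26, and -0.01 over all genes.

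Between ECH and HF the 37 genes lay on both sides of 0. None was called, as was none of all genes tested (0% with or without the 2-fold change). DESeq2, with 0.481% of all genes called, the likelihood ratio test with 0.424% and limma-voom with 0% called none of the 37 either. At an unadjusted p under 0.05, Psap, Mcoln1 and Scarb2 were higher in ECH (3 genes, against 5.17% of all genes) and none was lower (2.81%). The fold change was above 0 for 16 of 37 and for 52% of all genes. All ECH libraries stood above all HF libraries for Man2b1, Asah1 and Scarb2 (3.56% of all genes) and below for Atp6v0e (3.36%), and the median log2 fold change was -0.03 against 0.02 over all genes.

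**Figure D2:**
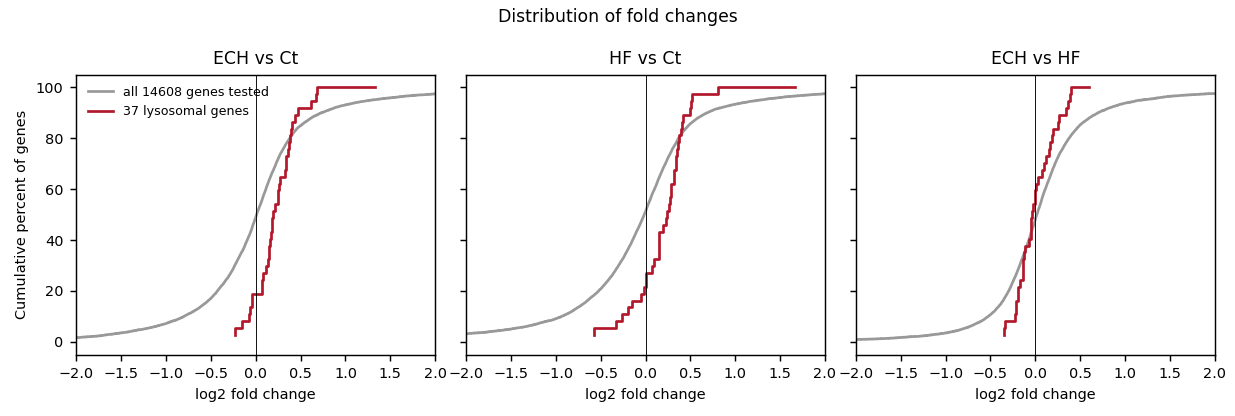
Cumulative percent of genes (vertical axis) at or below each log2 fold change (horizontal axis, shown from -2 to 2) for the 37 lysosomal genes and all 14608 genes tested, in ECH vs Ct, HF vs Ct and ECH vs HF. The lysosomal curve lies to the right of that of all genes around 0 in both comparisons with Ct, with medians of 0.22 and 0.26, and crosses it in ECH vs HF, with a median of -0.03.

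The inferred library series bear on these counts. Against Ct, ECH libraries 1 and 2, of the same series, gave 6 of the 37 genes higher at an unadjusted p under 0.05 (2.4% of all genes) and none lower (2.64%). These 6 were Atp6v0d2, Atp6v1a, Atp6v1c1, Gusb, Hexa and Lamp1, and the median log2 fold change was 0.25. Against HF, ECH libraries 3 and 4 gave 7 higher (9.49%) and 6 lower (11.7%), and Psap, Scarb2, Mcoln1 and Hexa were called (6.47% of all genes). HF against Ct with the series as a covariate, which ties the groups through ECH, gave 8 higher (8.41%), Mcoln1 as the only lower gene (6.67%) and a median of 0.26.

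**Figure D3:**
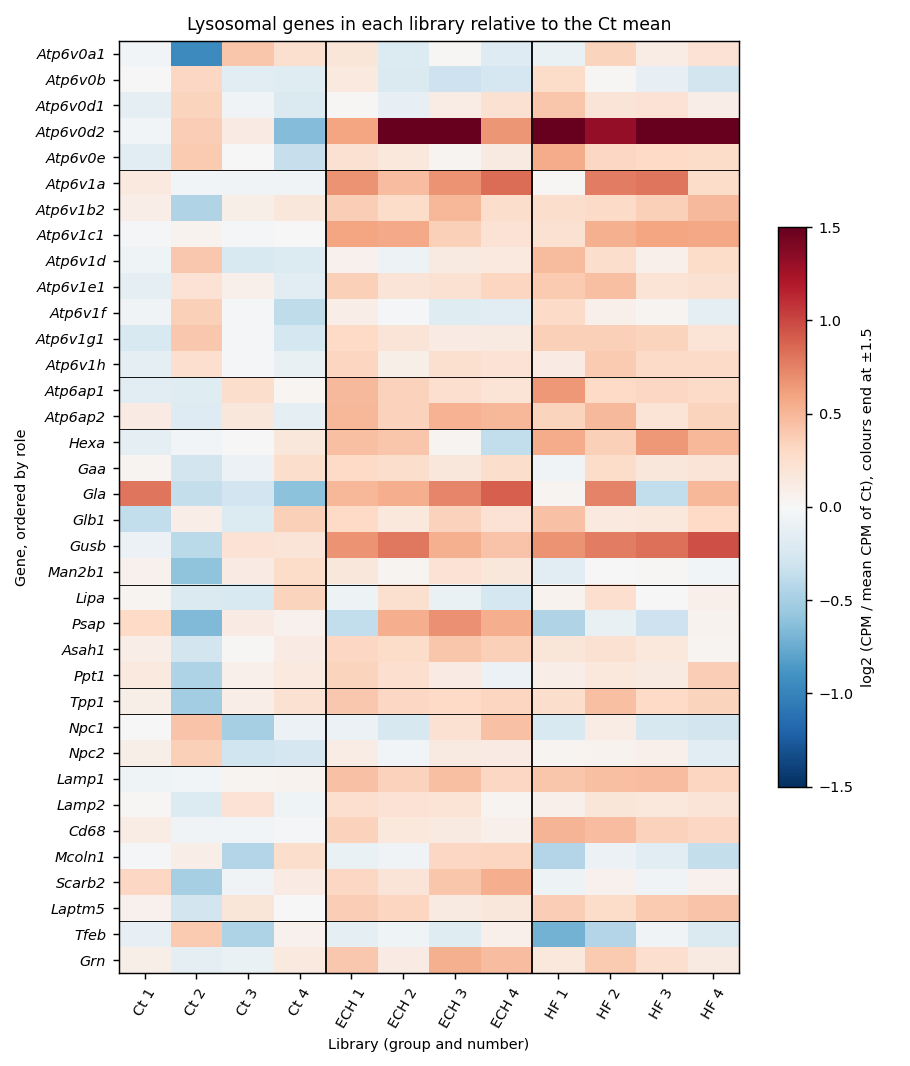
Level of 36 lysosomal genes (rows, ordered by role; Atp6v0c, at under 1 CPM, is left out) in each of the 12 libraries (columns, by group) as log2 of its CPM over the Ct mean, with colours ending at ±1.5. Atp6v0d2 is the darkest row in ECH and HF, most pump and membrane genes are red in all 8 isoproterenol libraries, and Ct library 2 has both blue and red rows.

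Atp6v0d2, of the V0 sector, had the largest log2 fold change of the 36 genes other than Atp6v0c in both comparisons with Ct. It codes for the d2 form of the subunit that joins the proton ring to the central shaft, a form known from osteoclasts and Mφ, and lies at chr4:19876841-19922605 on the minus strand of GRCm38. Atp6v0d2 read 9.18, 12.2, 10.3 and 6.01 CPM in Ct, 14.1, 27.5, 37.9 and 14.9 in ECH and 33.9, 23.4, 30.9 and 31.2 in HF, with means of 9.41 ± 2.59, 23.6 ± 11.3 and 29.8 ± 4.52. Every isoproterenol library stood above every Ct library, and ECH libraries 1 and 4 were close to the Ct range. It rose in HF by 1.67 ± 0.32 on the log2 scale (3.17-fold, edgeR FDR 0.0394), and the difference in ECH was 1.33 ± 0.32 (edgeR FDR 0.0996). The call in HF ended without Ct library 1, 2, 3 or 4, ECH library 2 or HF library 1, 2, 3 or 4, each left out alone, with an edgeR FDR of up to 0.127 and log2 fold changes of 1.5 to 1.82. For Atp6v0d2, HF vs Ct, it also ended with the replicate block, at 1.73 (edgeR FDR 0.0663), and with the library series as a covariate, at 1.32 (edgeR FDR 0.271). The same call was lost without Ct library 2 and HF library 1 together. The usual d1 form, Atp6v0d1, read 76.5, 106, 81.1 and 72.3 CPM in Ct, 85.1, 76.8, 90.7 and 98.3 in ECH and 111, 95.6, 97.3 and 90.1 in HF, with means of 83.8 ± 14.9, 87.7 ± 9.05 and 98.6 ± 9.13. All but Ct library 2 of the Ct libraries lay below every HF library, and ECH overlapped both. Its differences were 0.07 ± 0.14 in ECH, a sign that turned with ECH libraries 1 and 2 alone or with the library series as a covariate, and 0.23 ± 0.14 in HF. Over 21 alternatives the difference in HF ran from 0.01 to 0.36, highest without Ct library 2. Per kilobase of transcript, d1 averaged 51.5 CPM in Ct and 60.5 in HF, and d2 3.71 and 11.8, so d1 was the more abundant form in both.

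Atp6v0e, the small subunit of the V0 sector, read 211, 310.0, 234 and 186 CPM in Ct, 276, 262, 242 and 258 in ECH and 346, 291, 290.1 and 284 in HF, with means of 235 ± 53.6, 259.7 ± 14.0 and 303 ± 28.9. HF stood above Ct apart from Ct library 2, which was higher than HF libraries 2 to 4, and HF stood above ECH throughout. The difference was 0.36 ± 0.15 in HF and 0.14 ± 0.15 in ECH (edgeR FDR 0.266 and 0.761). Apart from library 2, the Ct libraries also lay below every ECH library, and without Ct library 2 the difference in HF was 0.52. Atp6v0a1, the a1 form of the subunit with the proton channels, averaged 158 ± 56.3, 154 ± 20.2 and 175 ± 21.9 CPM, and Atp6v0b, a proteolipid of the proton ring, 474 ± 78.1, 428 ± 64.3 and 469 ± 77.6 CPM in Ct, ECH and HF. Neither had an unadjusted p under 0.05 in any comparison. Atp6v0c, the main proteolipid of the ring, held only 1 to 16 counts per library. Of the 50-base stretches of its main transcript, 32.5% also occur in other genes, the pseudogenes Atp6v0c-ps1 and Atp6v0c-ps2, so its level is uncertain and no fold change is given.

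Of the 8 V1 genes, 4 were higher than Ct at an unadjusted p under 0.05 in ECH and 6 in HF, where 6.03% and 7.35% of all genes were, and none was called by edgeR's quasi-likelihood test. DESeq2 called Atp6v1a and Atp6v1c1 in ECH and Atp6v1c1 in HF, the likelihood ratio test called Atp6v1a in ECH and Atp6v1c1 in HF, and limma-voom called Atp6v1c1 and Atp6v1g1 in HF. Atp6v1a, the catalytic subunit that splits ATP, read 137, 120.3, 119 and 119 CPM in Ct, 198, 171, 198 and 222 in ECH and 126, 211, 216 and 149.9 in HF, with means of 124 ± 8.60, 197 ± 20.7 and 176 ± 45.1. ECH did not overlap Ct, while HF library 1 lay within the Ct range, library 4 between it and ECH, and libraries 2 and 3 with ECH. The log2 difference was 0.67 ± 0.17 in ECH and 0.50 ± 0.17 in HF (edgeR FDR 0.108 and 0.188). Atp6v1b2, the non-catalytic partner of the same ring, read 228, 156, 226 and 239 CPM in Ct, 274, 256, 301 and 255 in ECH and 255, 258, 271 and 296 in HF, with means of 212 ± 38.1, 271 ± 21.5 and 270.2 ± 18.6. Neither isoproterenol group overlapped Ct, where library 2 lay far below the others, and the differences were 0.36 ± 0.14 and 0.35 ± 0.14 (edgeR FDR 0.329 and 0.256). Without Ct library 2 they were 0.23 and 0.23, and the unadjusted p was no longer under 0.05 in HF. Atp6v1c1, the subunit that ties V1 to V0 when the pump assembles, read 104, 109, 102 and 104 CPM in Ct, 158, 155, 134 and 122 in ECH and 123, 152, 158 and 157 in HF, with means of 105 ± 2.85, 142 ± 17.2 and 147 ± 16.3. The Ct libraries lay close together and below all others, and ECH libraries 1 and 2 were above ECH libraries 3 and 4. Its differences were 0.44 ± 0.12 and 0.49 ± 0.12 (edgeR FDR 0.153 and 0.1).

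Differences of the stalk and regulatory subunits of V1 were smaller with all libraries in the fit. Without Ct library 2, Atp6v1e1, at 0.35 in ECH and 0.40 in HF, exceeded Atp6v1b2, at 0.23 in both. Atp6v1e1 read 139.7, 179, 163 and 138 CPM in Ct, 199, 177, 181 and 193 in ECH and 203, 211, 178 and 181 in HF, with means of 155 ± 20.01, 187 ± 10.2 and 193 ± 16.3. Ct library 2 alone reached into the range of ECH and HF, and the differences were 0.27 ± 0.12 and 0.32 ± 0.12 (edgeR FDR 0.387 and 0.231). Atp6v1g1, another part of the peripheral stalk, read 153, 239, 177 and 150.0 CPM in Ct, 221, 206, 196 and 197 in ECH and 231, 230.0, 227 and 207 in HF, with means of 179.8 ± 41.1, 205 ± 11.6 and 224 ± 11.1. Ct library 2 was the highest of all 12 libraries and the other Ct libraries lay below every ECH and HF library, with differences of 0.19 ± 0.14 and 0.32 ± 0.14 (edgeR FDR 0.653 and 0.304), the latter 0.48 without Ct library 2. For Atp6v1g1, 19.2% of the 50-base stretches of the main transcript occur in other genes. Atp6v1h, the regulatory subunit, read 77.7, 102, 84.3 and 79.0 CPM in Ct, 107, 91.2, 101 and 99.4 in ECH and 93.0, 112, 104 and 105 in HF, with means of 85.7 ± 11, 99.8 ± 6.64 and 104 ± 8.01. The same library 2 of Ct overlapped both groups, and the differences were 0.22 ± 0.12 and 0.27 ± 0.12 (edgeR FDR 0.502 and 0.288). Atp6v1d and Atp6v1f, of the central shaft, averaged 88.2 ± 19.6 and 171 ± 36.6 CPM in Ct, 92.6 ± 6.32 and 164 ± 15.7 in ECH, and 107 ± 12.2 and 180.0 ± 21.9 in HF, with no unadjusted p under 0.05.

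Both accessory subunits, which help the pump to assemble and to reach its compartment, were higher than Ct at an unadjusted p under 0.05 in ECH and in HF. Atp6ap1 (Ac45) read 480.4, 477, 650.2 and 551 CPM in Ct, 755, 684, 644 and 623 in ECH and 847, 664, 667 and 659 in HF, with means of 539.7 ± 81.3, 676 ± 58.1 and 709 ± 91.8. HF did not overlap Ct, and ECH libraries 3 and 4 lay below Ct library 3. Its differences were 0.33 ± 0.14 and 0.39 ± 0.14 (edgeR FDR 0.374 and 0.207). Atp6ap2, the prorenin receptor, read 388, 309.7, 401 and 321 CPM in Ct, 501, 449.7, 509 and 502 in ECH and 448, 499, 408 and 447 in HF, with means of 355 ± 46.0, 491 ± 27.5 and 450.4 ± 37.3. Neither group overlapped Ct, although HF library 3 came close to Ct library 3, and the differences were 0.47 ± 0.12 and 0.34 ± 0.12 (edgeR FDR 0.128 and 0.21).

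**Figure D4:**
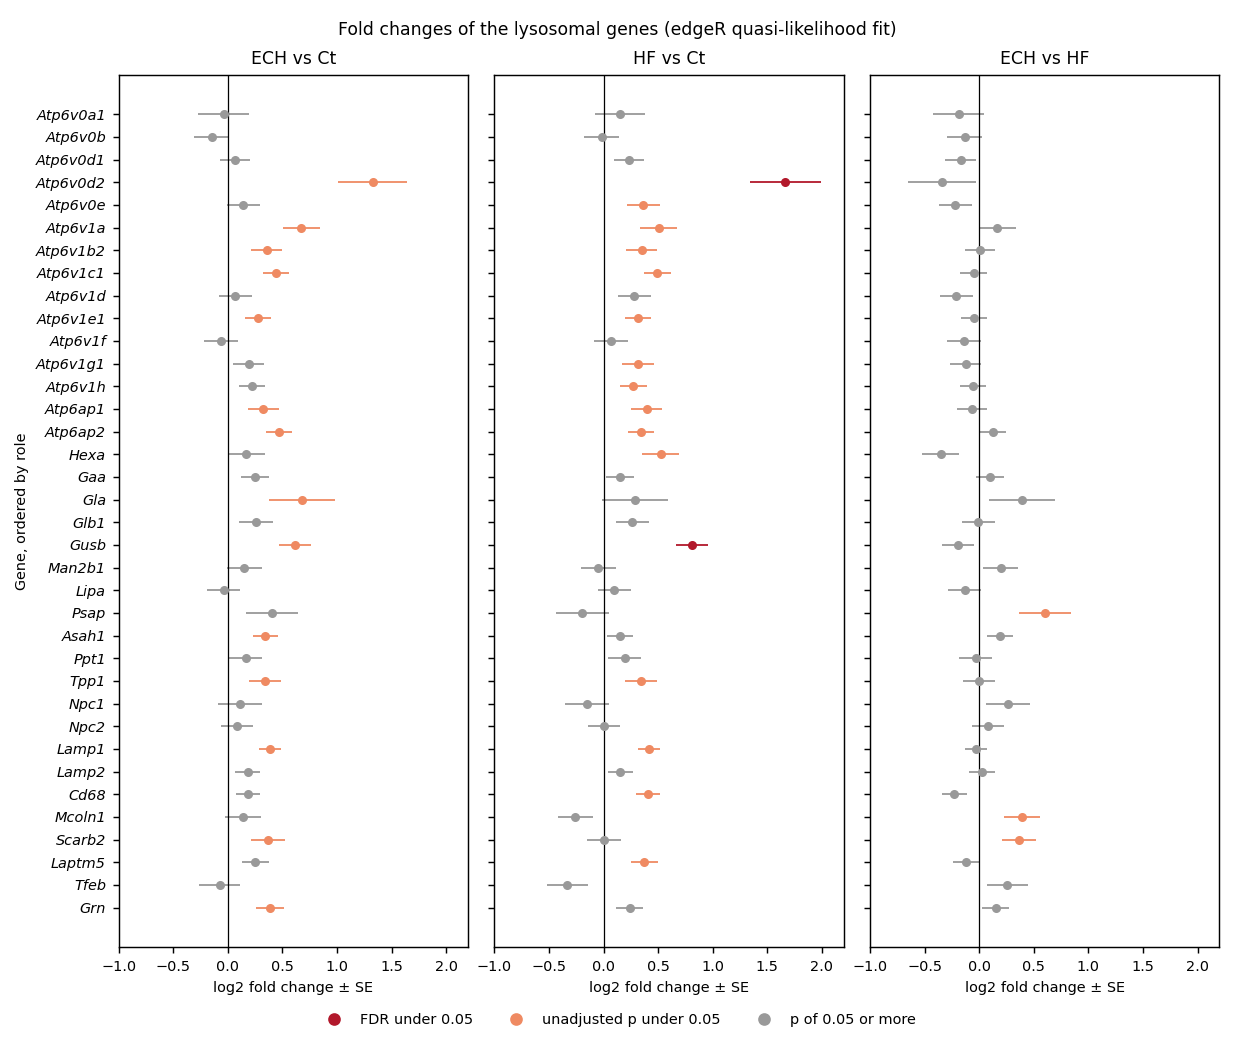
Log2 fold change ± SE (horizontal axes) of 36 lysosomal genes (rows, ordered by role; Atp6v0c is left out) in ECH vs Ct, HF vs Ct and ECH vs HF, coloured by whether the FDR or the unadjusted p was under 0.05. Atp6v0d2 at 1.67 and Gusb at 0.81 in HF vs Ct are the only points with an FDR under 0.05, and no gene with an unadjusted p under 0.05 lies below 0.

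Among the 6 glycosidases, enzymes that trim sugar chains, Gusb stood apart. Gusb is β-glucuronidase, which removes glucuronic acid from glycosaminoglycans, and lies at chr5:129989011-130003049 on the minus strand. Gusb read 278, 224, 345 and 338 CPM in Ct, 473, 511, 430.1 and 398 in ECH and 471, 505, 524 and 577 in HF, with means of 296 ± 56.7, 453 ± 49.5 and 519 ± 44.1. No Ct library reached the lowest ECH library, and ECH and HF overlapped. It rose in HF by 0.81 ± 0.15 on the log2 scale (1.75-fold, edgeR FDR 0.0364), and in ECH the difference was 0.61 ± 0.15 (edgeR FDR 0.101). The call in HF ended without Ct library 1 or 4, ECH library 1 or 3, or HF library 1, 2, 3 or 4, each left out alone, with an edgeR FDR of up to 0.120 and log2 fold changes of 0.70 to 0.89. For Gusb, HF vs Ct, it also ended with only those groups in the fit (edgeR FDR 0.0709), with the replicate block, at 0.82 (edgeR FDR 0.0931), and with the library series as a covariate, at 1.06 (edgeR FDR 0.0547). The same call was lost without Ct library 2 and HF library 1 together.

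Hexa, the α subunit of β-hexosaminidase, which degrades gangliosides, read 631, 674, 688 and 779 CPM in Ct, 944, 925, 712 and 538 in ECH and 1018, 891, 1089 and 983 in HF, with means of 693 ± 62.0, 779 ± 192 and 995 ± 82.3. HF did not overlap Ct, whereas ECH libraries 1 and 2 lay with HF and ECH library 4 below all Ct libraries. The differences were 0.52 ± 0.17 in HF, 0.17 ± 0.17 in ECH and -0.35 ± 0.17 between ECH and HF (edgeR FDR 0.177, 0.744 and 0.635). ECH libraries 1 and 2 lay apart from libraries 3 and 4 here. The split runs along the inferred series, and libraries 3 and 4 also share a title code, so these cannot be told apart. With the series as a covariate the difference was 1.10 between HF and Ct and -0.67 between ECH and HF, both called. ECH libraries 3 and 4 alone against HF also gave -0.67, called as well. The summed Mφ markers split ECH the same way, at 34009 and 30972 CPM in ECH libraries 1 and 2 and 24404.5 and 23684 CPM in libraries 3 and 4. Most of that split was Lyz2, at 21130 and 18990 against 13154 and 12791 CPM. Adgre1 (1320 and 1311 against 755 and 579) and Fcgr1 (140 and 182 against 104 and 71.5) split the same way, as Csf1r did. Mertk lay the other way, at 183 and 174 against 496 and 414 CPM, and Cd14, Itgam and C1qa overlapped. The part of these genes in Hexa was not tested. Gla, α-galactosidase A, read 58.1, 25.8, 27.2 and 21.7 CPM in Ct, 46.9, 48.5, 55.4 and 62.0 in ECH and 34.1, 55.6, 25.7 and 46.8 in HF, with means of 33.2 ± 16.7, 53.2 ± 6.92 and 40.6 ± 13.2. Ct library 1 was above 3 of the ECH libraries and the other Ct libraries below all of them, and HF spread over nearly the whole range. Its difference was 0.68 ± 0.30 in ECH and 0.29 ± 0.30 in HF (edgeR FDR 0.401 and 0.694). Without Ct library 1 these were 1.09 and 0.70, and HF too had an unadjusted p under 0.05. Gaa, the glucosidase of glycogen, averaged 120.2 ± 19, 143 ± 5.25 and 133 ± 12.8 CPM in Ct, ECH and HF, and Glb1, β-galactosidase, 71.6 ± 16.1, 85.6 ± 5.05 and 86.0 ± 8.23 CPM. Man2b1, the α-mannosidase of the lysosome, averaged 1051 ± 250.4, 1166 ± 62.3 and 1018 ± 54.3 CPM, with Ct library 2 far below the rest. None of these last genes had an unadjusted p under 0.05.

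Of the 4 lipid hydrolases and activators, Psap and Asah1 had an unadjusted p under 0.05 in a comparison. Psap codes for prosaposin, whose saposins present sphingolipids to their hydrolases, and read 2502, 1289, 2214 and 2133 CPM in Ct, 1574, 2969.9, 3271 and 2975 in ECH and 1484, 1888, 1639 and 2107 in HF, with means of 2034 ± 522, 2697 ± 762 and 1779 ± 275. ECH libraries 2 to 4 were the highest of all, ECH library 1 lay with HF, and Ct covered the range of HF and more. The difference was 0.60 ± 0.24 between ECH and HF, 0.41 ± 0.24 between ECH and Ct and -0.19 ± 0.24 between HF and Ct (edgeR FDR 0.579, 0.546 and 0.749). Asah1, acid ceramidase, read 710.2, 549.7, 676 and 726 CPM in Ct, 828, 807, 889.8 and 850.2 in ECH and 756, 776, 740.3 and 683 in HF, with means of 665 ± 80.0, 844 ± 35.5 and 739 ± 40.4. Every ECH library lay above every Ct and HF library, and Ct library 2 was far below the others. Its differences were 0.34 ± 0.12 in ECH and 0.15 ± 0.12 in HF (edgeR FDR 0.251 and 0.567). Lipa, the acid lipase that frees cholesterol from its esters, averaged 278 ± 52.5, 271 ± 41.0 and 298 ± 23.8 CPM, and Ppt1, which removes palmitate from proteins, 325 ± 59.7, 364 ± 44.5 and 372 ± 33.6 CPM in Ct, ECH and HF. Neither had an unadjusted p under 0.05.

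The peptidase Tpp1, which removes tripeptides from the ends of proteins, read 418, 274, 423 and 461 CPM in Ct, 522, 491, 485 and 494 in ECH and 474, 540.4, 485 and 498 in HF, with means of 394 ± 82.2, 498 ± 16.7 and 499 ± 29.2. Both groups lay above every Ct library, and Ct library 2 was the lowest by far. The differences were 0.34 ± 0.15 and 0.34 ± 0.15 (edgeR FDR 0.385 and 0.281). Without Ct library 2 they were 0.20 and 0.20, and neither had an unadjusted p under 0.05. For the proteins that hand cholesterol out of the lysosome, the groups overlapped. Npc1, of the membrane, averaged 61.1 ± 16.1, 66.0 ± 14.1 and 55.1 ± 7.23 CPM, and Npc2, of the lumen, 443 ± 96.9, 469 ± 25.5 and 445 ± 31.6 CPM in Ct, ECH and HF, with no unadjusted p under 0.05.

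Of the 6 membrane genes, Lamp1 was the only one to have an unadjusted p under 0.05 in both comparisons with Ct. Lamp1 and Lamp2 are the main glycoproteins of the lysosomal membrane. Lamp1 read 1411, 1439, 1518 and 1536 CPM in Ct, 1998, 1868, 2011 and 1825 in ECH and 1973, 2011, 2038 and 1853 in HF, with means of 1476 ± 60.6, 1926 ± 92.9 and 1969 ± 81.7. All isoproterenol libraries lay above all Ct libraries, and the spread within each group was small. The differences were 0.38 ± 0.10 and 0.42 ± 0.10, or 1.30-fold and 1.33-fold (edgeR FDR 0.132 and 0.0977), and DESeq2 called both. Its promoter is the stretch printed above with 4 copies of CACGTG. Lamp2 read 972, 837, 1115 and 923 CPM in Ct, 1149, 1114, 1108 and 990.4 in ECH and 1014, 1091, 1077 and 1101 in HF, with means of 962 ± 116, 1091 ± 69.2 and 1071 ± 39.1. Ct library 3 was higher than every isoproterenol library but ECH library 1, and the differences were 0.18 ± 0.12 and 0.15 ± 0.12 (edgeR FDR 0.588 and 0.558). They were 0.12 and 0.09 without Ct library 2, and 0.26 and 0.23 without Ct library 3.

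Cd68, the LAMP family member used as a marker of Mφ, read 1049, 939.8, 944 and 967 CPM in Ct, 1241, 1085, 1074 and 1024 in ECH and 1391, 1345, 1235 and 1206 in HF, with means of 975 ± 50.8, 1106 ± 93.8 and 1294 ± 88.1. HF did not overlap Ct, and ECH library 4 lay below Ct library 1. The differences were 0.41 ± 0.11 in HF and 0.18 ± 0.11 in ECH (edgeR FDR 0.126 and 0.556). Laptm5, a lysosomal membrane protein of leukocytes, read 2143, 1688, 2313 and 2037 CPM in Ct, 2638, 2558, 2250.2 and 2294 in ECH and 2651, 2481, 2693 and 2760.4 in HF, with means of 2045 ± 264, 2435 ± 192 and 2646 ± 119. HF again did not overlap Ct, ECH libraries 3 and 4 lay below Ct library 3, and the differences were 0.37 ± 0.12 in HF and 0.25 ± 0.12 in ECH (edgeR FDR 0.184 and 0.447).

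Scarb2 and Mcoln1 were the membrane genes with an unadjusted p under 0.05 between ECH and HF. Scarb2, or LIMP-2, carries glucocerebrosidase to the lysosome and read 148, 84.5, 115 and 129 CPM in Ct, 148, 136, 159 and 174 in ECH and 113, 125, 115 and 124 in HF, with means of 119 ± 26.8, 154 ± 16.1 and 119 ± 6.05. Every ECH library lay above every HF library, with Ct spread around both. The differences were 0.37 ± 0.16 between ECH and HF, 0.37 ± 0.16 between ECH and Ct and 0.00 ± 0.16 between HF and Ct (edgeR FDR 0.595, 0.366 and 0.995). Without Ct library 2 the difference between ECH and Ct was 0.24, with an unadjusted p no longer under 0.05. Mcoln1 codes for the calcium channel TRPML1 and read 111, 120.0, 82.7 and 135 CPM in Ct, 105, 108, 139 and 140.0 in ECH and 82.9, 106, 99.4 and 87.6 in HF, with means of 112 ± 22.0, 123 ± 19.2 and 93.9 ± 10.4. ECH libraries 3 and 4 were above all HF libraries and ECH libraries 1 and 2 within or beside their range, and the differences were 0.39 ± 0.16 between ECH and HF and -0.26 ± 0.16 between HF and Ct (edgeR FDR 0.595 and 0.472).

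Tfeb itself was not among the genes higher than Ct. Tfeb read 48.0, 68.2, 37.8 and 54.6 CPM in Ct, 47.6, 49.9, 46.0 and 54.9 in ECH and 32.0, 38.6, 50.2 and 45.0 in HF, with means of 52.2 ± 12.8, 49.6 ± 3.88 and 41.4 ± 7.90. The 3 groups overlapped, with HF library 1 lowest and Ct library 2 highest. The differences were -0.07 ± 0.19 in ECH, a sign that turned without Ct library 2 and with limma-voom, and -0.33 ± 0.19 in HF (edgeR FDR 0.917 and 0.412). The difference in HF ran from -0.46 without Ct library 3 to -0.18 without Ct library 2, and Tfeb was lower there at an unadjusted p under 0.05 without Ct library 3 (with Mcoln1) or without HF library 3. Of the genes higher in ECH at an unadjusted p under 0.05, 10 had a promoter in the table, and 3 of these held CACGTG, as did 6 of the 20 others. In HF the counts were 3 of 11 and 6 of 19. Grn, or progranulin, which is taken up into lysosomes and processed there, read 2283, 1952, 2014 and 2378 CPM in Ct, 2864, 2349, 3113 and 2967 in ECH and 2407, 2838, 2564 and 2370.4 in HF, with means of 2157 ± 206, 2823 ± 332 and 2545 ± 212. ECH libraries 1, 3 and 4 lay above all Ct libraries and ECH library 2 within their range, and the differences were 0.39 ± 0.13 in ECH and 0.24 ± 0.13 in HF (edgeR FDR 0.237 and 0.382).

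**Figure D5:**
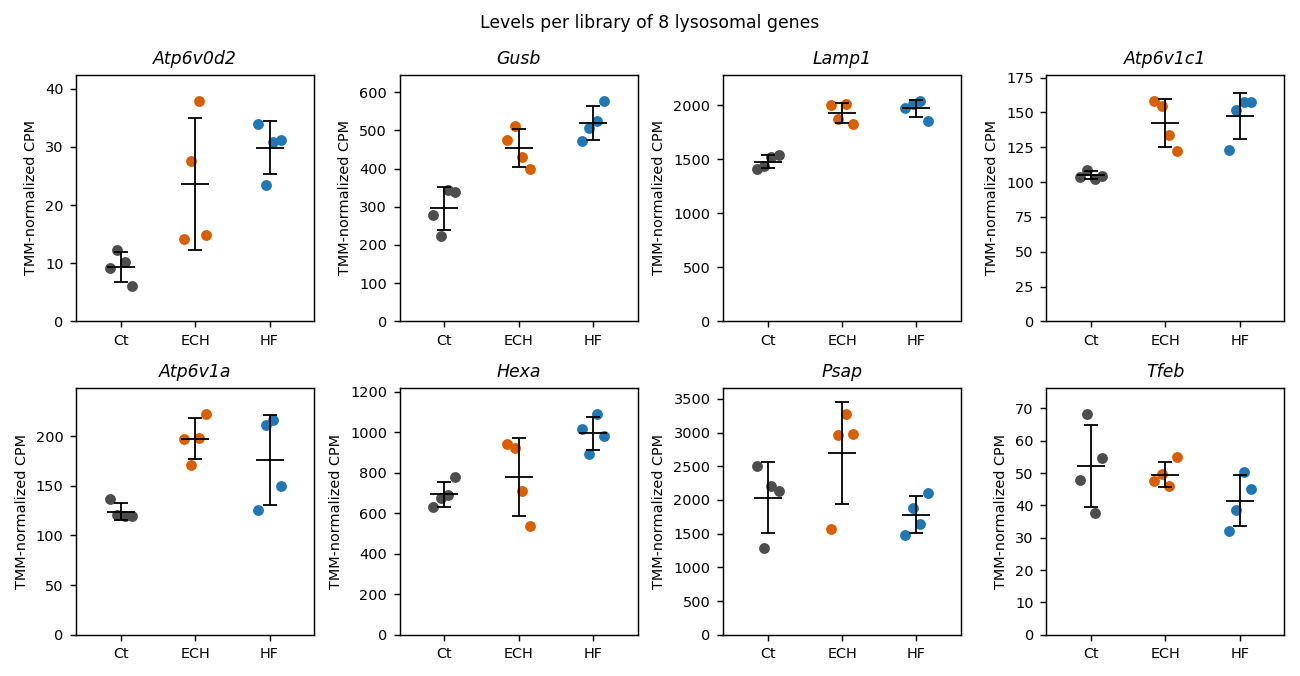
TMM-normalized CPM (vertical axes, from 0) of 8 lysosomal genes in each library by group, with points for libraries and bars for mean ± SD (n = 4). Atp6v0d2, Gusb, Lamp1 and Atp6v1c1 show no overlap between Ct and the isoproterenol groups, Hexa falls into pairs within ECH, ECH library 1 is apart from the other ECH libraries for Psap, and the groups overlap for Tfeb.

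The genes thus fell into sets by comparison. At an unadjusted p under 0.05, 10 were higher than Ct in both isoproterenol groups, comparisons that share the Ct libraries, as were 2.92% of all genes tested. These were Atp6v0d2, Atp6v1a, Atp6v1b2, Atp6v1c1, Atp6v1e1, Atp6ap1, Atp6ap2, Gusb, Tpp1 and Lamp1, of which 7 are pump genes. Only ECH passed for Gla, Asah1, Scarb2 and Grn (4 genes, 3.09% of all genes), and only HF for Atp6v0e, Atp6v1g1, Atp6v1h, Hexa, Cd68 and Laptm5 (6 genes, 4.42%). Of these last 10, Scarb2 alone also had an unadjusted p under 0.05 between ECH and HF. None was called there by the quasi-likelihood test over all libraries, Hexa was called with the library series as a covariate, and Hexa and Scarb2 with ECH libraries 3 and 4 alone against HF. The sets also moved with the fit. With the series as a covariate Hexa (0.431) and Laptm5 (0.345) passed in ECH too, and without Ct library 1 Gla (0.704) passed in HF too. No comparison passed for 15 genes, as for 75.2% of all genes. With each of the 12 libraries left out in turn, 8 of the 14 genes passed every time in ECH and 9 of the 16 in HF. Atp6v0d2, Atp6v1a, Atp6v1c1, Atp6ap2, Gusb and Lamp1 were among both. Per kilobase of transcript, the most abundant in Ct were Grn (922 CPM), Cd68 (793), Laptm5 (787), Psap (766) and Lamp1 (662), and apart from Atp6v0c the least abundant were Atp6v0d2 (3.71), Gla (10.5) and Npc1 (11.7).

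Other genes of the lysosome showed calls of their own. Of 13 cathepsins, the proteases of the lumen, Ctsd rose in ECH and in HF. It read 1001, 990.5, 989 and 1137 CPM in Ct, 2362, 2598, 2703 and 1647 in ECH and 2447, 2353, 2686 and 2227 in HF. The log2 differences were 1.18 ± 0.15 and 1.24 ± 0.15 (edgeR FDR 0.00803 and 0.00335). No Ct library came near the isoproterenol libraries, and both differences were larger than those of any hydrolase among the 37. The call in ECH ended with only ECH and Ct in the fit and with ECH libraries 1 and 2 alone against Ct, where the difference was 1.26 (edgeR FDR 0.139), and that in HF held in each of 21 alternatives. Ctsb read 5145 to 5744, 6385 to 8760.0 and 7772 to 8577 CPM (edgeR FDR 0.137 and 0.0568), and Ctsl 300.1 to 466, 478 to 799.8 and 416 to 548 CPM (edgeR FDR 0.073 and 0.449). Other fits called both higher. These were, for Ctsb, DESeq2 in ECH and limma-voom, DESeq2, the likelihood ratio test and the fit with the library series as a covariate in HF. Ctsl was called in ECH by the same 3 tools and by the quasi-likelihood test without Ct library 2 or without ECH library 2. In all, edgeR's quasi-likelihood test called 1 cathepsin in each comparison with Ct, and at an unadjusted p under 0.05, 5 were higher in ECH with 0 lower and 4 were higher in HF with 2 lower, where 6.03% and 5.89% of all genes were in ECH and 7.35% and 8.72% in HF.

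Of 28 other hydrolases and activators, Gm2a, the activator that lifts gangliosides to β-hexosaminidase, rose in HF. It read 379, 365, 367 and 406 CPM in Ct, 475, 601, 580.1 and 506 in ECH and 565, 515, 638 and 670.2 in HF, without overlap with Ct, and differed by 0.66 ± 0.12 in HF and 0.51 ± 0.12 in ECH (edgeR FDR 0.0366 and 0.0996). Its call ended without Ct library 1, 2 or 4, ECH library 3 or 4, or HF library 1, 2, 3 or 4, each left out alone (edgeR FDR up to 0.134). For Gm2a, HF vs Ct, it also ended with the replicate block, at 0.65 (edgeR FDR 0.0950), with the library series as a covariate, at 0.64 (edgeR FDR 0.153), with only those groups in the fit (edgeR FDR 0.0642) and without Ct library 2 and HF library 1 together (edgeR FDR 0.0881). DESeq2, the likelihood ratio test and limma-voom called it in HF, and DESeq2 and the likelihood ratio test in ECH. Arsb, which removes sulfate from glycosaminoglycans, read 67.6 to 84.9 CPM in Ct, 37.1 to 61.0 in ECH and 36.7 to 53.7 in HF (edgeR FDR 0.136 and 0.0912). It was called lower by DESeq2 and the likelihood ratio test in both groups and by limma-voom in HF. With an unadjusted p under 0.05, 5 of the 28 were higher and 2 lower in ECH, and 4 were higher and 3 lower in HF, beside 6.03% and 5.89% of all genes in ECH and 7.35% and 8.72% in HF. The lower counts are near the shares over all genes.

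The quasi-likelihood test called no gene among the 4 tested of 9 other pump subunits, the 21 tested of 22 other membrane proteins, 18 factors of the TFEB family and of nutrient sensing, 9 sorting receptors and adaptors, or 17 autophagy genes in the comparisons with Ct. Of the genes named here, DESeq2 and the likelihood ratio test called Clcn7 and Uvrag in ECH and M6pr and Tmem175 in HF, the last pair with limma-voom as well. DESeq2 alone also called Rragc and M6pr in ECH and Mcoln3 in HF, and leaving out ECH library 2 gave a call of Uvrag in ECH. Of the membrane proteins, 6 were higher and 1 lower in ECH at an unadjusted p under 0.05, and 3 and 1 in HF, where 6.03% and 5.89% of all genes were in ECH and 7.35% and 8.72% in HF. Clcn7, the chloride-proton exchanger, read 45.6 to 85.8 CPM in Ct, 97.9 to 146 in ECH and 69.8 to 103 in HF, and Tmem175, a potassium and proton channel, 25.2 to 42.1, 39.8 to 51.8 and 46.0 to 55.9 CPM. Mcoln3, a relative of Mcoln1, was at 0 in 3 Ct libraries and reached 0.427 CPM in ECH and 1.87 CPM in HF. Among sorting genes, M6pr, the smaller receptor of mannose 6-phosphate, read 239.8 to 273, 281 to 364 and 336 to 342 CPM without overlap with Ct (edgeR FDR 0.142 and 0.113). Sort1 reached 8.99 to 55.5 CPM in ECH against 5.40 to 16.3 in Ct, and Gga3 read 61.8 to 89.6 and 50.7 to 67.7 CPM in Ct and HF.

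The remaining genes named by the same rule were a subunit of the pump and genes of nutrient sensing and autophagy. Atp6v0a2, another form of the a subunit, read 20.4 to 51.5 CPM in Ct and 60.7 to 67.0 in ECH. Rragc, a GTPase that recruits mTORC1 to lysosomes, read 154 to 219, 221 to 253 and 198 to 255 CPM in Ct, ECH and HF, with the highest Ct library below the lowest ECH library (edgeR FDR 0.202 in ECH). Fnip1, a partner of folliculin, read 34.8 to 82.5 CPM in Ct and 27.9 to 34.0 in HF, without overlap, and Fnip2 25.4 to 58.9 in ECH and 13.6 to 27.3 in HF. Of the autophagy genes, Uvrag read 73.5 to 102, 108 to 195 and 90.4 to 117 CPM, with ECH libraries 3 and 4 highest (edgeR FDR 0.101 in ECH). Atg9a read 51.3 to 86.1 CPM in ECH and 50.1 to 54.7 in HF, and Atg5 43.4 to 62.6 CPM in Ct and 61.4 to 81.8 in HF. Between ECH and HF the quasi-likelihood test over all libraries called none of the genes of these lists. With the library series as a covariate, where 2.97% of all genes were called, it called Sort1, Uvrag, Atg9a and Ctsl of the named genes, and with ECH libraries 3 and 4 alone against HF, where 6.47% were, it called these and Clcn7 and Fnip2. At an unadjusted p under 0.05, 4 of the 28 hydrolases, 2 of the 13 cathepsins, 3 of the 21 membrane proteins, 2 of the 17 autophagy genes, Fnip2 of the 18 factors and Sort1 of the 9 sorting genes were higher in ECH, where 5.17% of all genes were. Lamtor2 of the 18 factors was lower, where 2.81% of all genes were.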

How the data were processed

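RNA was amplified with SMART-Seq v4 and sequenced paired end on a NextSeq 500. The authors trimmed reads with Trimmomatic, aligned them to the mouse genome (mm10) with TopHat2 and counted them per gene with featureCounts, per the labels and the study's methods. The sources used here name neither versions nor the strand setting of the counting. The deposited values are raw counts per gene, 1 library per mouse. The 37 genes and all lists were chosen with earlier results of these data known. Counts were filtered with filterByExpr and fitted in edgeR 4.0.16 (R 4.3.3) with TMM scaling, 1 mean per group over all 12 libraries, and the quasi-likelihood test, with Benjamini-Hochberg adjustment over 14608 genes. P-values measure the spread between these mice, and counting error weighs most on genes with few counts, such as Atp6v0c. Values per library are given for each of the 37 genes with an unadjusted p under 0.05 in any comparison and for Tfeb, Lamp1, Lamp2, Cd68, Atp6v0d1 and Atp6v0d2 (25 genes), and of each list of other lysosomal genes up to 3 with the smallest p were named, of which 1 is not reported here. Alternatives were DESeq2 1.42.0, limma-voom (limma 3.58.1), edgeR's likelihood ratio test, other scaling, filter and samples, a replicate block, the inferred library series as a covariate and each library left out. Promoters came from RefSeq and gene models from GENCODE M21. Protein sequences were not used here. The fits were tested on simulated data.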

Additional observations from a re-analysis of the deposited data

Results flagged for a closer look

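In a group of 4 libraries, a library was singled out where its gap to the nearest other library took up more of the group's range than Dixon's 95% critical value for 4 samples, which happens by chance in about 1 of 20 groups. Among 111 sets of a gene and a group, 11 had such a library. In HF, library 1 was above the others for Atp6v0e (345.6 CPM against 284 to 291) and Atp6ap1 (847 against 659 to 667), library 4 was below them for Atp6v1g1 (207 against 227 to 231) and Npc2 (398 against 455 to 466), and library 2 was above them for Npc1 (65.9 against 50.6 to 52.1). In Ct, library 1 was above the others for Atp6v1a (137 CPM against 119 to 120.3) and Gla (58.1 against 21.7 to 27.2), and library 2 was below them for Atp6v1b2 (156 against 226 to 239) and Ppt1 (236 against 343 to 361). In ECH, library 2 was below the others for Atp6ap2 (449.7 CPM against 500.5 to 509) and Npc2 (431 against 477 to 485).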

How the results depend on the processing

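Of the results for single genes under each alternative, 1545 kept their direction and their side of the threshold, 39 lost and 71 gained a call and 8 reversed. The reversed ones were small differences. Atp6v0d1 in ECH vs Ct was -0.0573 with ECH libraries 1 and 2 and -0.0504 with the library series as a covariate. Lamp2 in ECH vs HF was -0.0311 with ECH libraries 3 and 4, -0.0293 with the covariate and -0.00242 without Ct library 2 and HF library 1. Tfeb in ECH vs Ct was 0.0180 with limma-voom, 0.0718 without Ct library 2 and HF library 1, and -0.199 to 0.0830 with each library left out, above 0 there without Ct library 2.

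Of the 37, DESeq2 called 6 in ECH vs Ct and 7 in HF vs Ct, the likelihood ratio test 4 and 4, and limma-voom 1 and 6, against 0 and 2. In HF vs Ct, 1 was called with the 2-fold change (0.377% of all genes), 1 with the covariate (Hexa, 1.51%), 1 with only those groups in the fit (Atp6v0d2, 0.391%) and 0 without Ct library 2 and HF library 1 (0.375%). In ECH vs HF, where no other test called any, 4 were called with ECH libraries 3 and 4 (6.47%) and 1 with the covariate, 2.7% of the 37 against 2.97% of all genes. Leaving out each library in turn gave 0 to 2 called in HF vs Ct and 0 in the other comparisons. At an unadjusted p under 0.05, ECH vs Ct had 6 genes with ECH libraries 1 and 2 (5.03% of all genes), 9 with only those groups (10.4%), and 9 to 14 with each library left out, 9 of them without ECH library 3. HF vs Ct had 9 with the covariate (15.1%) and 12 to 16 with each library left out. ECH vs HF had 5 with DESeq2 (13.5% of the 37 against 9.75% of all genes), 13 with ECH libraries 3 and 4 (35.1% against 21.2%), 6 with the covariate (16.2% against 16.2%), 5 with limma-voom (13.5% against 13.3%), and 0 to 5 with each library left out (0 without ECH library 4 or HF library 1, 1 without ECH library 3 or HF library 3, 5 without ECH library 1). Medians with each library left out ran from 0.21 to 0.25 in ECH vs Ct, 0.22 to 0.27 in HF vs Ct and -0.07 to 0.0062 in ECH vs HF, above 0 there without ECH library 4. Apart from fits with fewer samples, the cause was not tested.

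The replicate numbers gave no sign of a pairing. Samples of the same number correlated at -0.07 to 0.07 and those of different numbers at -0.154 to 0.141. Weak correlations cannot exclude a pairing in handling. With the number as a replicate block, 0 of the 37 genes were called in HF vs Ct, and 0.13% of all genes. Over 21 alternatives the edgeR, DESeq2 or limma FDR in HF vs Ct ran from 7.57e-05 to 0.271 for Atp6v0d2 and from 2.17e-05 to 0.120 for Gusb, each called in 9. Atp6v0c, at 1 to 16 counts per library, was too shallow to compare.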
